A study of Homo sapiens with 6 samples.

Results

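The genes described here encode the ubiquitin-conjugating enzymes of the UBE2 family and the subunits and regulators of the anaphase-promoting complex/cyclosome (APC/C). Members were taken by symbol: every gene whose symbol begins with UBE2, every ANAPC gene with a number, CDC16, CDC20, CDC23, CDC26, CDC27, FZR1 and FBXO5, without UBE2L6. Of the 19775 genes that had a probe set assigned to a single gene, 47 met this rule. They were divided into 18 mitotic members (UBE2C, UBE2S and the APC/C genes) and 29 other members. All 47 were tested, with no filter on low signal.

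LNCaP, an androgen-responsive line derived from a human prostate cancer, received either siRNA, short duplex RNA that lowers a chosen transcript, against the non-coding RNA PCARNEQ (siPCARNEQ) or siRNA against the jellyfish reporter EGFP (siEGFP). Each group had 3 single-colour Affymetrix arrays of total RNA, numbered 1 to 3. All cells were of this 1 line and differed, per the labels, only in the siRNA. Since separate cultures are not named in the labels, the p-values reflect the spread among these arrays, and this may be technical spread.

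Ubiquitin is passed from an activating enzyme (E1) to a conjugating enzyme (E2) and then, with the help of a ligase (E3), to a target protein, which is often degraded by the proteasome as a result. The APC/C is the large E3 ligase that ends mitosis. Activated by CDC20 and later by FZR1 (also called CDH1), it marks securin, the mitotic cyclins and many spindle proteins for destruction. Chains on its targets are started by UBE2C and extended by UBE2S. Most other E2 enzymes serve processes throughout the cell cycle, such as DNA damage tolerance, degradation of misfolded proteins of the endoplasmic reticulum (ER), and the attachment of ubiquitin-like proteins.

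In siPCARNEQ cells the APC/C activator CDC20, the inhibitor FBXO5 and both E2 enzymes of the complex fell, while most of its subunits did not pass the test. Of the 47 members 17 were called, or 9 lower and 8 higher, where 27.5% of all genes were called in either direction. That share is not matched for signal. It counts 6987 dim genes, which lay below the median of all probe sets in both groups, while 6 of the members were that dim. UBE2C, UBE2S, CDC20 and FBXO5 were called lower, with log2 changes of -0.45 to -1.06, and FZR1 had a change of 0.05. Among the 13 measured subunits, ANAPC13, ANAPC7 and CDC27 fell, ANAPC15 and ANAPC16 rose, and 8 did not pass. The 2 probe sets of ANAPC7 were called in opposite directions, so its direction is not settled. CDC27 did not pass under several other settings. Among the other E2 enzymes UBE2A had the lowest change, at -1.28, while UBE2H, UBE2F, UBE2E2 and UBE2B were higher by 0.49 to 0.71. A gene was called where the adjusted p of limma, with Benjamini-Hochberg adjustment over all 19775 genes, was below 0.05. In RNA from whole cultures, fewer cells in mitosis and less of a transcript per cell cannot be told apart.

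**Figure D1:**
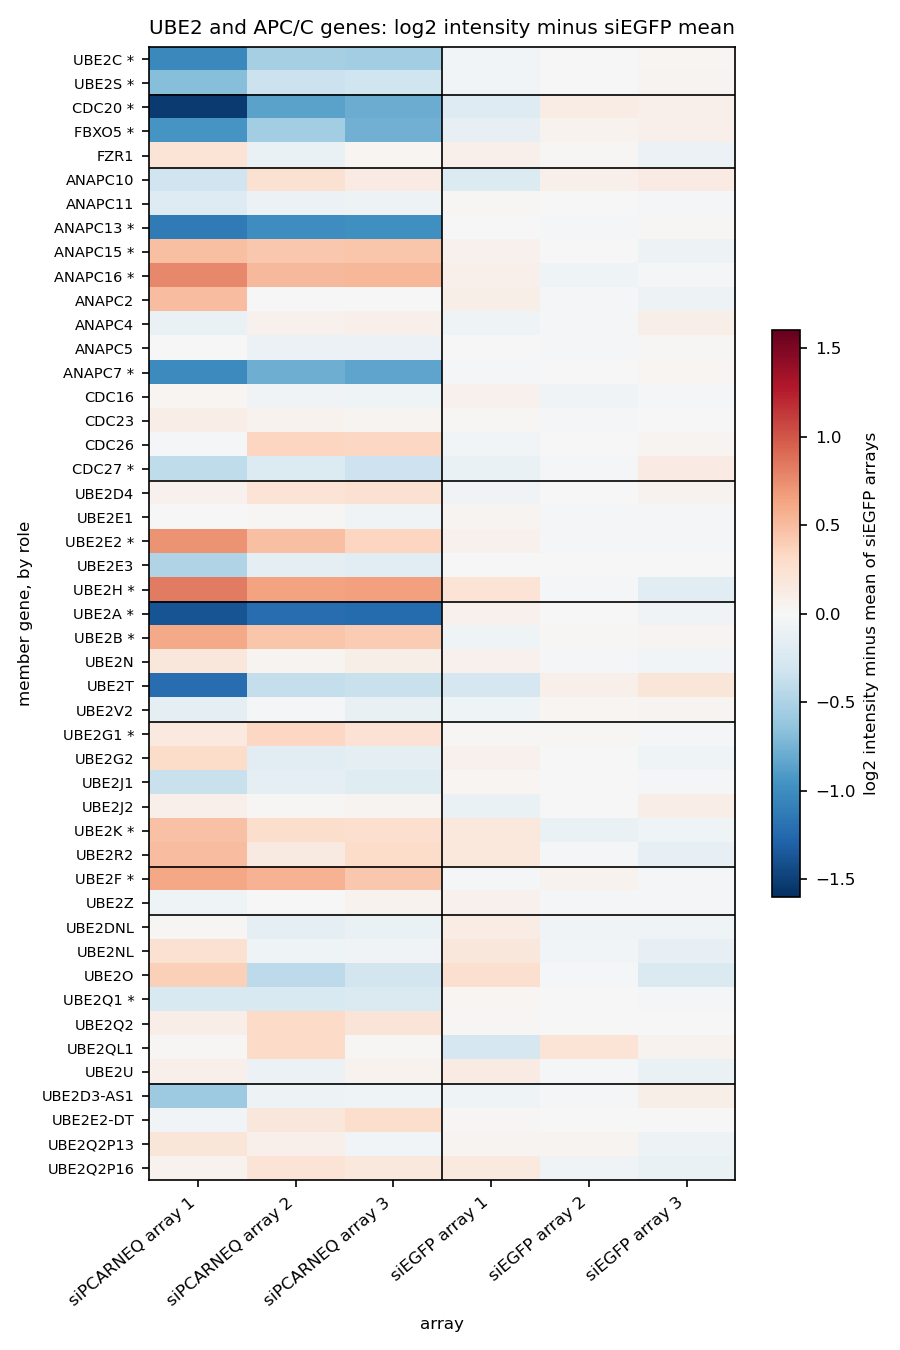
Heat map of the log2 intensity of each of the 47 members (rows, grouped by role) on each array (columns, siPCARNEQ left of siEGFP), as the difference from the mean of the siEGFP arrays. Blue is lower and red higher, and an asterisk marks genes with an adjusted p below 0.05. UBE2C, UBE2S, CDC20, FBXO5, ANAPC13, ANAPC7 and UBE2A are blue in all 3 siPCARNEQ arrays.

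Array 1 stood apart from arrays 2 and 3 in both groups. The SD of the log2 difference across genes was 0.12 between siPCARNEQ arrays 2 and 3 and 0.11 between siEGFP arrays 2 and 3, against 0.31 and 0.23 to 0.24 between array 1 and the others of its group. RNA integrity was read from ACTB, whose 3' control probe set exceeded its 5' one by a log2 difference of 1.84 on siPCARNEQ array 1 and 0.63 to 0.78 on the other 5 arrays. The luminal prostate markers fitted the labelled line, with 7 of 7 measured markers, among them KLK3, TMPRSS2 and HOXB13, above the array median of 7.03 on all arrays. The mean of these 7 markers was 12.43 to 12.45 in siPCARNEQ arrays and 11.84 to 11.92 in siEGFP arrays. Of the immune markers CD3E lay slightly above the median on all arrays (7.46 in siPCARNEQ and 7.48 in siEGFP), and PTPRC was below the median on all arrays (5.09 in siPCARNEQ and 5.08 in siEGFP), as was the basal keratin KRT14 (6.30 and 5.28), while KRT5 had 6.97 in siPCARNEQ and 7.13 in siEGFP. The mean over 3 stromal markers was 8.56 to 8.83 in siPCARNEQ arrays and 8.40 to 8.43 in siEGFP arrays, and the genes went both ways. The collagen gene COL1A1 was called higher (10.79 in siPCARNEQ and 9.68 in siEGFP), the smooth muscle actin ACTA2 was called lower (7.96 and 8.42), and DCN did not pass (7.25 and 7.14). What part these differences have in the values below was not tested. The deposited values had been brought to 1 common distribution, so an overall change of RNA per cell cannot be seen in them.

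Promoters were examined for the APC/C regulators and E2 enzymes and for UBE2T, because genes of late cell cycle phases often carry a cell cycle genes homology region (CHR) beside CCAAT boxes. The 300-base windows, from RefSeq on GRCh38.p14, run from 250 bases before to 50 bases after the annotated start of the gene. Windows matched 38 of the 47 members, and UBE2C was not among them. The letters TTTGAA or TTCGAA (CHR) and CCAAT were searched on both strands, as were E2F-type letters. The first E2F-type form was TTGGCGC. Another form searched was TTCCCGC. A further form was TTGCCGC, and the last form was TTCGCGC. In the sequences, capitals mark every match, and bases are counted from 1 at the 5' end.
The CDC20 window lies at chr1:43358731-43359030 (+ strand) and is shown because it holds both kinds of element.
CDC20: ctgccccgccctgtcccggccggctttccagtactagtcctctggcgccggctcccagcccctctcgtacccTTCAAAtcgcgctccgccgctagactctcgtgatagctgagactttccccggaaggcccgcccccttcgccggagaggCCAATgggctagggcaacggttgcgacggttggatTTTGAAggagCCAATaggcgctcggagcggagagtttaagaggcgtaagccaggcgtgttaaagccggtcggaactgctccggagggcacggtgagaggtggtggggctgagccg
The UBE2T window at chr1:202341887-202342186 (- strand) also holds both.
UBE2T: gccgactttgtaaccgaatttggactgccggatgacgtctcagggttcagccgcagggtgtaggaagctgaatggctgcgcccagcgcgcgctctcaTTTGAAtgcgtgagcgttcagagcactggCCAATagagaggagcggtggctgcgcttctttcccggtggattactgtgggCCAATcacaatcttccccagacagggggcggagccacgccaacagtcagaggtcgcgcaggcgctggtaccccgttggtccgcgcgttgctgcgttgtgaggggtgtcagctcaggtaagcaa
The windows of UBE2S at chr19:55407739-55408038 (- strand) and FBXO5 at chr6:152983530-152983829 (- strand), which fell as well, are shown for contrast.
UBE2S: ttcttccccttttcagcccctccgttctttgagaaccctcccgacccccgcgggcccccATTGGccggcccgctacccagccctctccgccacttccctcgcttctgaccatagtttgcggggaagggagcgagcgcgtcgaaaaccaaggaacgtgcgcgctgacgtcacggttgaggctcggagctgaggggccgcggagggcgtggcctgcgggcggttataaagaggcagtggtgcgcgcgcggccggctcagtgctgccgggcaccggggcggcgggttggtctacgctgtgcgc
FBXO5: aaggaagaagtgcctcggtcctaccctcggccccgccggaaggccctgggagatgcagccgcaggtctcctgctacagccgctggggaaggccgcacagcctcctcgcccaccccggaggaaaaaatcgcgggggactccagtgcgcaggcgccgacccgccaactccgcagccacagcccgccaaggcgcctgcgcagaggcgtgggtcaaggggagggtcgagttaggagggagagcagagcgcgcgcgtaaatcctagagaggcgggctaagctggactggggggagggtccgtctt
The FZR1 window at chr19:3506061-3506360 (+ strand) belongs to the activator that did not pass.
FZR1: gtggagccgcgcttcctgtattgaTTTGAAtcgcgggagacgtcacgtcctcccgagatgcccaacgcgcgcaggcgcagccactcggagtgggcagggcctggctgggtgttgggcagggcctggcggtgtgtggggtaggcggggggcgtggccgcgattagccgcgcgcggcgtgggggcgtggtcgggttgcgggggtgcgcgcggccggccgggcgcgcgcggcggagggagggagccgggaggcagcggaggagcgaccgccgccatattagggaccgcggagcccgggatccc

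CDC20 held TTTGAA at bases 186 to 191, between CCAAT at bases 151 to 155 and at bases 196 to 200, and a further TTCAAA, the same letters on the other strand, at bases 73 to 78. UBE2T held TTTGAA at bases 98 to 103 and CCAAT at bases 127 to 131 and 178 to 182. UBE2S held ATTGG, the reverse complement of CCAAT, at bases 60 to 64 and no CHR letters, and FZR1 held TTTGAA at bases 25 to 30 and no CCAAT. FBXO5 held none of the letters searched. CHR letters were found in 16.4% of all 35116 promoter windows, CCAAT in 34.6%, E2F-type letters in 13% and CHR with CCAAT in 6.38%. Among the 38 member windows 6 held CHR letters, 12 CCAAT, 6 E2F-type letters and 4 CHR with CCAAT. The 4 with both were CDC20, UBE2T, UBE2F, which was called higher, and UBE2U, which did not pass. Of the 6 windows of mitotic members that fell, 2 held CHR letters (CDC20 and ANAPC7), 3 CCAAT and 2 E2F-type letters. Of the 6 windows of members called higher, 1 held CHR letters, 1 CCAAT and 0 E2F-type letters. Of the 25 windows of members that did not pass, 3 held CHR letters, 8 CCAAT and 4 E2F-type letters. A match of such short letters is a description of the window, not a binding site.

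The E2 enzymes of the APC/C both fell. UBE2C, which builds the first ubiquitins on APC/C targets, had 10.66, 11.15 and 11.14 log2 intensity in siPCARNEQ arrays 1 to 3, against 11.65, 11.70 and 11.72 in siEGFP arrays 1 to 3. The groups did not overlap, and siPCARNEQ array 1 was the lowest. UBE2C fell by 0.70 (SE 0.13, adjusted p = 0.00738, n = 3 per group), to 61.4% of its siEGFP level on the linear scale. UBE2S, which extends chains through lysine 11 of ubiquitin, had 12.53, 12.86 and 12.89 in siPCARNEQ arrays against 13.17, 13.22 and 13.25 in siEGFP arrays. Again all siPCARNEQ arrays lay below all siEGFP arrays, with a fall of 0.45 (SE 0.11, adjusted p = 0.0178). Here and below, such separation adds little to a call, since 5443 of all 5445 genes called had no overlap. UBE2S did not pass without siEGFP array 2 (adjusted p = 0.0652) or array 3 (adjusted p = 0.0702). When each group's arrays 2 and 3 were combined into 1 mean, neither gene passed (adjusted p = 0.0527 for UBE2C and 0.0963 for UBE2S), with changes of -0.77 for UBE2C and -0.49 for UBE2S. Both passed when the array set was a block in that same fit (adjusted p = 0.00386 for UBE2C and 0.0158 for UBE2S). In this and later uses, that block fit leaves few values per gene to measure spread. Its p-values therefore lean on spread borrowed over all genes. In arrays 2 and 3 alone, the changes were -0.56 for UBE2C and -0.36 for UBE2S.

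Of the 3 regulators, the activator CDC20 and the inhibitor FBXO5 fell. CDC20, the activator of the APC/C in mitosis and the target of the spindle checkpoint, had 10.42, 11.10 and 11.16 in siPCARNEQ arrays against 11.75, 12.08 and 12.04 in siEGFP arrays. This fall of 1.06 (SE 0.20, adjusted p = 0.00733) left 47.9% of the siEGFP level, and CDC20 was lost on averaging arrays 2 and 3 (change -1.13, adjusted p = 0.0515) but not with the array set as a block there (adjusted p = 0.000791). FBXO5, also called EMI1, which holds the APC/C inactive in S and G2 phase, had 9.76, 10.15 and 9.93 in siPCARNEQ arrays against 10.57, 10.75 and 10.78 in siEGFP arrays. The groups did not overlap, and FBXO5 fell by 0.75 (SE 0.11, adjusted p = 0.00267), with its other probe set lower by 0.58. FZR1, the activator that keeps the APC/C active from late mitosis through G1 phase, had 9.15, 8.82 and 8.97 in siPCARNEQ arrays against 9.02, 8.95 and 8.83 in siEGFP arrays. Its groups overlapped, its change was 0.05 (SE 0.10, adjusted p = 0.786), and its other 3 probe sets had changes of -0.21 to 0.07.

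**Figure D2:**
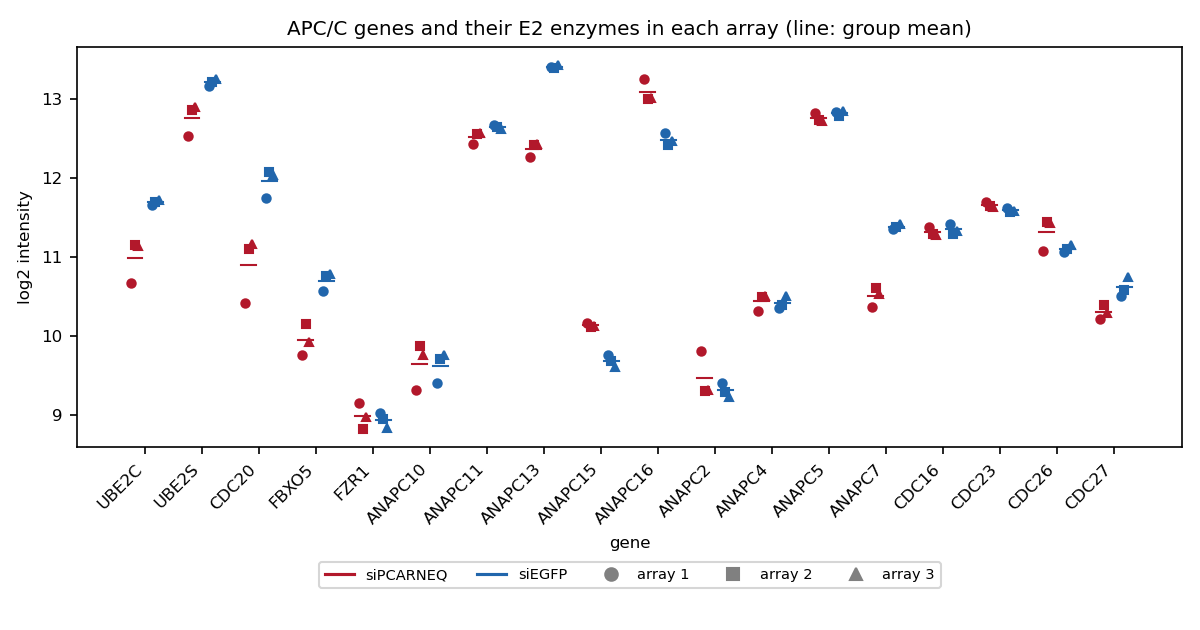
Log2 intensity of the 18 mitotic members (x axis) on each array, with siPCARNEQ in red left of siEGFP in blue, symbols for the array number and lines for group means. UBE2C, UBE2S, CDC20, FBXO5, ANAPC13, ANAPC7 and CDC27 have all siPCARNEQ points below all siEGFP points, and array 1 is the lowest siPCARNEQ point for each of them.

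The subunits of the APC/C moved in both directions. ANAPC13, a small subunit that helps to hold the arc of tetratricopeptide repeat proteins together, had 12.27, 12.41 and 12.42 in siPCARNEQ arrays against 13.40, 13.39 and 13.43 in siEGFP arrays. All siPCARNEQ arrays lay well below all siEGFP arrays, and ANAPC13 fell by 1.04 (SE 0.07, adjusted p = 0.000118), to 48.7% of the siEGFP level. Its second probe set lay at 4.63 to 4.94 in siPCARNEQ arrays and 5.63 to 6.00 in siEGFP arrays, below the array median and in a range where signal may be background. ANAPC13 passed under all 15 other settings tried, of which the one without _s_at, _x_at and _a_at probe sets rests on that dim probe set.

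ANAPC7, a tetratricopeptide repeat subunit, had 10.36, 10.60 and 10.53 in siPCARNEQ arrays against 11.35, 11.37 and 11.41 in siEGFP arrays, a fall of 0.88 (SE 0.08, adjusted p = 0.000351). The 2 probe sets of ANAPC7 disagreed: the brighter fell, and the other was higher by 0.28 (adjusted p = 0.0297 over probe sets), so the direction of the gene as a whole is not settled. ANAPC7 was the 1 member with probe sets called in opposite directions, of 31 with over 1 probe set. CDC27, the subunit that receives the activators, had 10.21, 10.39 and 10.29 in siPCARNEQ arrays against 10.51, 10.58 and 10.75 in siEGFP arrays. Its fall of 0.32 (SE 0.09, adjusted p = 0.0356) was the smallest among the mitotic members called lower, and it did not pass under 7 of 15 other settings, among them without siPCARNEQ array 1 or 3 (adjusted p = 0.0615 and 0.0975) and without siEGFP array 2 or 3 (adjusted p = 0.0938 and 0.125).

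ANAPC16 and ANAPC15 were the subunits that rose. ANAPC16, a small subunit, had 13.25, 12.99 and 13.01 in siPCARNEQ arrays against 12.56, 12.41 and 12.47 in siEGFP arrays, a rise of 0.61 (SE 0.09, adjusted p = 0.00279). Of its other 3 probe sets, 2 were called higher, by 0.53 and 1.04, and 1 had a change of 0.22. ANAPC15, which helps the APC/C to shed the spindle checkpoint complex, had 10.16, 10.12 and 10.12 in siPCARNEQ arrays against 9.75, 9.69 and 9.60 in siEGFP arrays. The groups did not overlap, and the rise was 0.45 (SE 0.07, adjusted p = 0.00269), lost on averaging arrays 2 and 3 (change 0.44, adjusted p = 0.0576) but not with the array set as a block there (adjusted p = 0.0161).

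The 8 remaining subunits did not pass. For ANAPC2, the cullin-like subunit, and ANAPC11, the RING subunit, which form the catalytic core, the changes were 0.16 (SE 0.14) and -0.13 (SE 0.07). ANAPC2 had 9.81, 9.30 and 9.31 in siPCARNEQ arrays against 9.40, 9.29 and 9.23 in siEGFP arrays, so its difference lay mainly in array 1. ANAPC11 had 12.43, 12.56 and 12.56 in siPCARNEQ arrays against 12.67, 12.65 and 12.62 in siEGFP arrays. Its groups did not overlap although the test was not passed (adjusted p = 0.229).

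The scaffold subunits ANAPC4 and ANAPC5 had changes of 0.02 (SE 0.08) and -0.06 (SE 0.07). ANAPC4 had 10.32, 10.49 and 10.50 in siPCARNEQ arrays against 10.35, 10.39 and 10.51 in siEGFP arrays. ANAPC5 had 12.82, 12.73 and 12.72 in siPCARNEQ arrays against 12.83, 12.79 and 12.84 in siEGFP arrays. Both sets of arrays overlapped. ANAPC10, which helps to bind the degradation signal of targets, had 9.31, 9.87 and 9.75 in siPCARNEQ arrays against 9.40, 9.71 and 9.76 in siEGFP arrays, with array 1 the lowest in both groups and a change of 0.02 (SE 0.16).

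Among the other tetratricopeptide repeat proteins, CDC16 had 11.38, 11.29 and 11.27 in siPCARNEQ arrays against 11.42, 11.29 and 11.33 in siEGFP arrays, a change of -0.03 (SE 0.07). CDC23 had 11.70, 11.65 and 11.63 in siPCARNEQ arrays against 11.61, 11.57 and 11.58 in siEGFP arrays. Its groups did not overlap, by a margin of hundredths, and its change of 0.07 (SE 0.06, adjusted p = 0.483) did not pass. CDC26, a small partner of CDC16, had 11.07, 11.44 and 11.43 in siPCARNEQ arrays against 11.06, 11.10 and 11.14 in siEGFP arrays. Its change of 0.21 (SE 0.11, adjusted p = 0.207) lay in arrays 2 and 3, while array 1 differed by 0.01. In arrays 2 and 3 alone CDC26 passed at 0.31 (adjusted p = 0.00456). Those arrays differed little within each group, and 8229 genes were called with them alone, against 5445 with all arrays.

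The mitotic and the other members were described side by side. Of the 18 mitotic members 7 fell (38.9%), where 12.3% of all genes tested fell, and 2 rose (11.1%), where 15.2% of all genes rose. The 7 include ANAPC7, whose direction is not settled, and CDC27, which did not pass under several other settings. Of the 29 other members 2 fell (6.90%) and 6 rose (20.7%). These shares were not matched for signal. Below the array median in both groups lay 6987 of all genes, 0 mitotic members and 6 other members. Without genes below the median 5352 genes were still called, so dim genes lower the shares over all genes. The median change was -0.05 for mitotic members, 0.05 for other members and -0.01 for all genes, so the middle of each class lay near 0. The classes were not tested against each other, and their counts moved with the setting. In arrays 2 and 3 alone 7 mitotic and 5 other members fell. Without _s_at, _x_at and _a_at probe sets 3 mitotic and 2 other members fell. By role, both E2 enzymes of the APC/C and 2 of 3 regulators fell, against 3 of 13 subunits. The siPCARNEQ arrays lay below the siEGFP arrays without overlap in 8 of 18 mitotic members and in 6 of 29 other members, where 21.7% of all genes did. They lay above without overlap in 3 and 8, where 22.3% of all genes did. The mean log2 intensity over mitotic members was 10.98, 11.11 and 11.09 in siPCARNEQ arrays 1 to 3, against 11.25, 11.27 and 11.29 in siEGFP arrays. Over other members it was 10.41, 10.41 and 10.40 in siPCARNEQ arrays against 10.41, 10.37 and 10.34 in siEGFP arrays.

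Averaging arrays 2 and 3 left 3 mitotic members lower (FBXO5, ANAPC13 and ANAPC7) and 1 higher, while the same averaging with the array set as a block left 6 lower and 2 higher. Without probe sets whose names mark possible matches to several transcripts (_s_at, _x_at and _a_at), 3 fell and 4 rose, and UBE2S, CDC20 and FBXO5 had no probe set left. In all 7 mitotic members that fell, the change had the same sign in array 1 and in arrays 2 and 3. This adds nothing to the calls, since all 5445 genes called had the same sign in both. In 6 of the 7 the change was larger in array 1 than in arrays 2 and 3, as it was in 3640 of the 5445 genes called. The part of the RNA integrity of siPCARNEQ array 1 in that difference was not tested, and without that array 6 of the mitotic members fell.

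**Figure D3:**
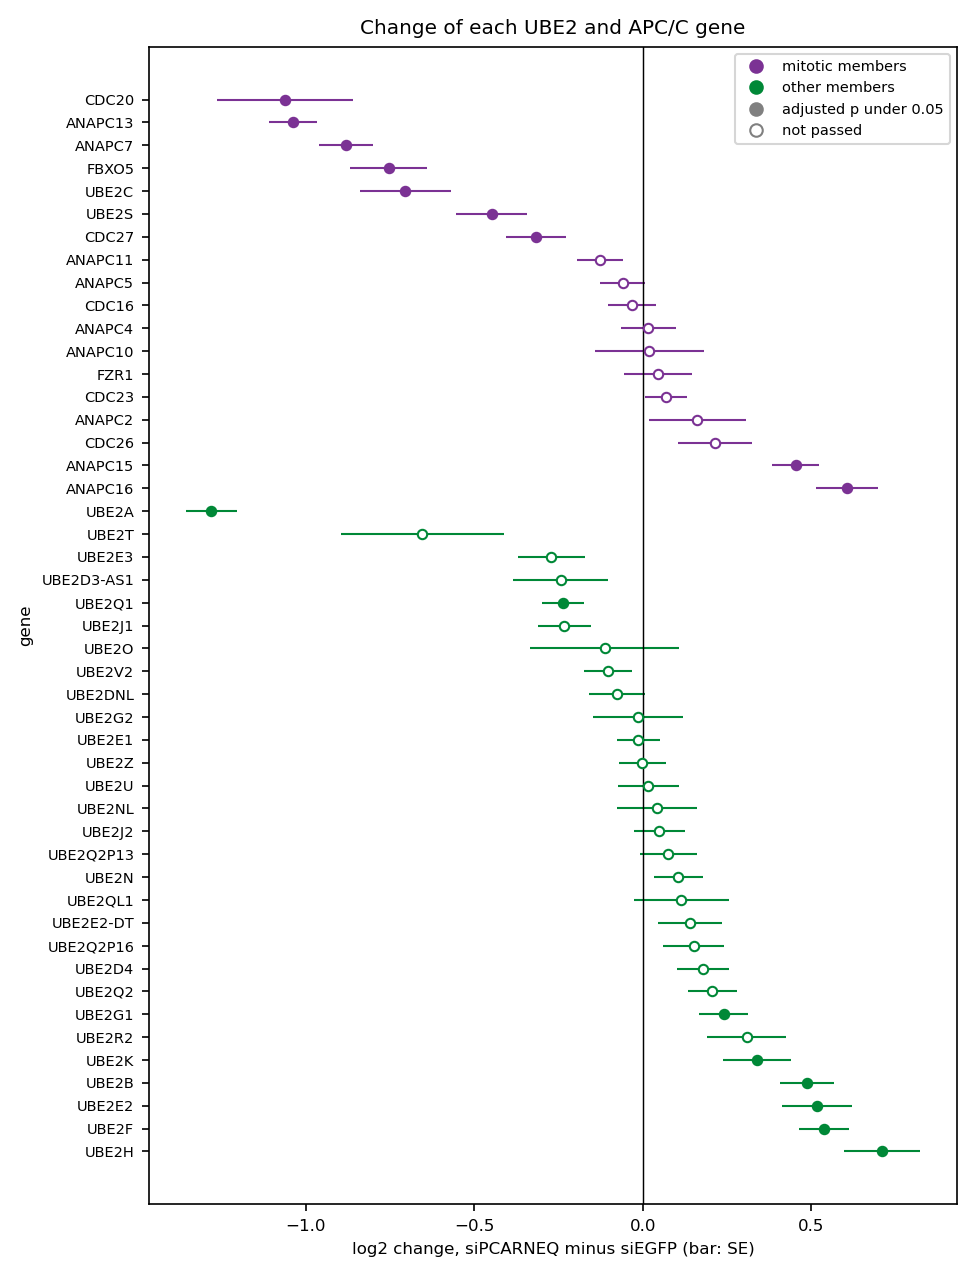
Log2 change, siPCARNEQ minus siEGFP, of each member (points) with its SE (bars), mitotic members above other members, each class ordered by change. Filled points passed at an adjusted p below 0.05. Among mitotic members the changes run from -1.06 (CDC20) to 0.61 (ANAPC16), and among other members from -1.28 (UBE2A) to 0.71 (UBE2H).

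Among E2 enzymes of DNA damage tolerance and repair, UBE2A and UBE2B moved in opposite directions. They are the paired human counterparts of yeast Rad6, which with the ligase RAD18 attaches ubiquitin to the sliding clamp PCNA. UBE2A had 10.49, 10.66 and 10.64 in siPCARNEQ arrays against 11.94, 11.87 and 11.82 in siEGFP arrays. Its change was -1.28 (SE 0.08, adjusted p = 7.55e-05), or 41.2% of the siEGFP level, and its second probe set was lower by 0.98. UBE2B had 11.87, 11.70 and 11.66 in siPCARNEQ arrays against 11.19, 11.27 and 11.30 in siEGFP arrays. The groups did not overlap in either gene. UBE2B rose by 0.49 (SE 0.08, adjusted p = 0.00388). Its brightest probe set, used here, was the only one called of 7, and the other 6 had changes of -0.14 to 0.51. Without _s_at, _x_at and _a_at probe sets its change was -0.14 (adjusted p = 0.415), from a probe set that lay below the array median.

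UBE2T, the E2 enzyme of the Fanconi anaemia pathway for repair of crosslinked DNA, had 11.34, 12.18 and 12.20 in siPCARNEQ arrays against 12.28, 12.64 and 12.75 in siEGFP arrays. Its groups did not overlap, but array 1 was low in both, and the change of -0.65 (SE 0.24, adjusted p = 0.0905) did not pass. With the replicate number as a block UBE2T passed at the same size (adjusted p = 0.00596), and with arrays 2 and 3 alone at -0.51 (adjusted p = 0.00213). With those closely similar arrays alone 8229 genes were called, against 5445 with all arrays. UBE2N, which builds chains through lysine 63 of ubiquitin, and its partner UBE2V2 had changes of 0.11 and -0.10, neither passing. UBE2V2 depended on the probe set, since its brightest did not pass and both others were called lower, by 0.73 and 0.95.

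Among the broadly acting and chain-starting enzymes, 2 of 5 rose. UBE2H, the E2 partner of the CTLH ligase, had 12.20, 12.02 and 12.03 in siPCARNEQ arrays against 11.59, 11.34 and 11.20 in siEGFP arrays. It rose by 0.71 (SE 0.11, adjusted p = 0.00331), and of its other 7 probe sets 1 was called, higher by 1.21, while 6 had changes of -0.14 to 0.51. UBE2E2 had 12.35, 12.11 and 11.98 in siPCARNEQ arrays against 11.70, 11.59 and 11.60 in siEGFP arrays. It rose by 0.52 (SE 0.10, adjusted p = 0.00913), lost on averaging arrays 2 and 3 (change 0.55, adjusted p = 0.0665) but not with the array set as a block there (adjusted p = 0.00821). Neither gene's groups overlapped. The related UBE2E1 and UBE2E3 had changes of -0.01 and -0.27 and UBE2D4 of 0.18, none of them passing.

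Enzymes of ER-associated degradation and of chains through lysine 48 showed small changes in their brightest probe sets. UBE2K, which builds lysine 48 chains, rose by 0.34 (SE 0.10, adjusted p = 0.043), and UBE2G1 by 0.24 (SE 0.07, adjusted p = 0.0458). Both stood close to the threshold: UBE2K did not pass under 8 of 15 other settings and UBE2G1 under 10 of 15. These settings included leaving out siEGFP array 2 (adjusted p = 0.15 for UBE2K and 0.124 for UBE2G1), siEGFP array 3 (0.146 and 0.151), siPCARNEQ array 2 (0.0737 and 0.15) and siPCARNEQ array 3 (0.0749 and 0.115). UBE2K also failed without siPCARNEQ array 1 (adjusted p = 0.0763), and UBE2G1 without siEGFP array 1 (0.0808). UBE2G2, UBE2J1 and UBE2J2, which serve ER-associated degradation, had changes of -0.01, -0.23 and 0.05 that did not pass, although 3 of the 6 probe sets of UBE2J1 were called lower, by 0.32 to 0.61. UBE2R2, a partner of cullin-RING ligases, had a change of 0.31 (adjusted p = 0.097). It passed with the replicate number as a block (adjusted p = 0.0232). With arrays 2 and 3 averaged and the array set as a block it did not (adjusted p = 0.0587). The other probe set of UBE2R2 was called higher, by 0.68 (adjusted p = 0.0151 over probe sets).

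UBE2F, which with RBX2 attaches the ubiquitin-like protein NEDD8 to CUL5, rose. It had 11.89, 11.83 and 11.70 in siPCARNEQ arrays against 11.24, 11.32 and 11.24 in siEGFP arrays, with no overlap. The rise was 0.54 (SE 0.08, adjusted p = 0.00193), and all 4 probe sets had positive changes, 3 of them called. UBE2Z, charged by the E1 enzyme UBA6, had a change of -0.0013 (adjusted p = 0.993).

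Of the remaining 7 E2 enzymes and E2-like genes 1 was called. UBE2Q1 fell by 0.24 (SE 0.06, adjusted p = 0.0268), with its 3 probe sets at -0.24 to -0.32, and did not pass under 8 of 15 other settings, including the loss of siEGFP array 1, 2 or 3 (adjusted p = 0.0619, 0.0932 and 0.0737) or of siPCARNEQ array 2 or 3 (0.0822 and 0.0827). UBE2Q2, UBE2O, UBE2QL1, UBE2U, UBE2NL and UBE2DNL had changes of 0.21, -0.11, 0.11, 0.02, 0.04 and -0.08, none passing. UBE2QL1, UBE2U and UBE2DNL lay below the array median in both groups, a range in which signal may be background. UBE2NL is listed by RefSeq as a transcribed pseudogene, and its probe set belongs to the _x_at kind, which can match other transcripts. The non-coding UBE2D3-AS1 and UBE2E2-DT and the pseudogenes UBE2Q2P13 and UBE2Q2P16 had changes of -0.24, 0.14, 0.08 and 0.15, none passing.

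**Figure D4:**
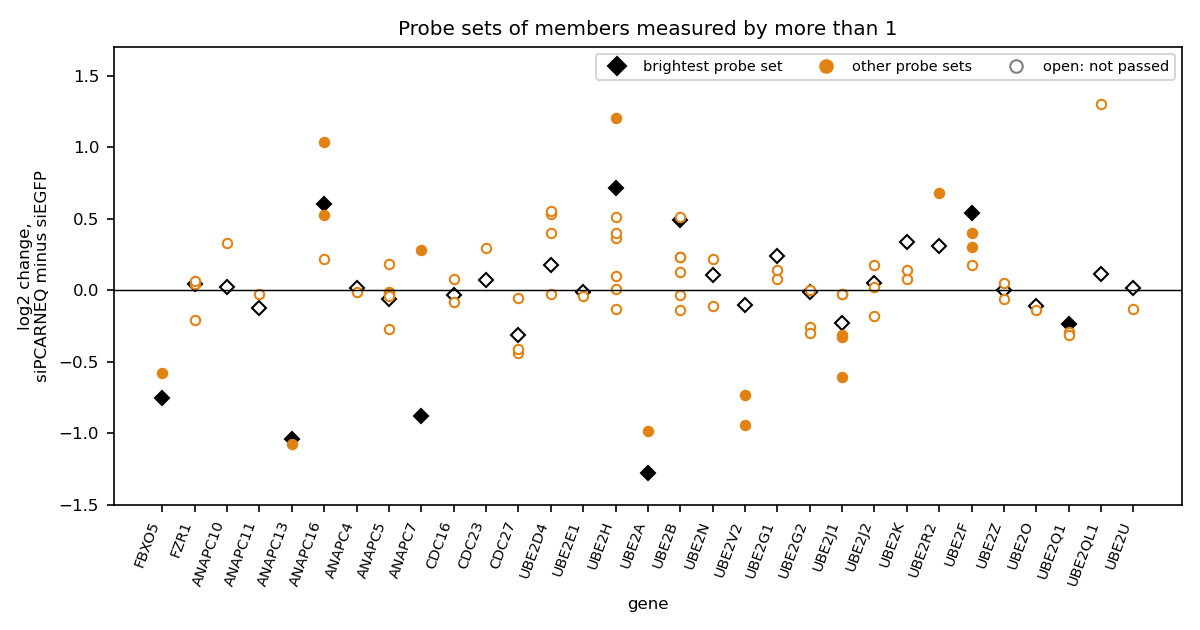
Log2 change, siPCARNEQ minus siEGFP, of every single-gene probe set of the 31 members with over 1 probe set. Diamonds are the brightest probe set, which represents the gene, circles are the others, and filled symbols passed at an adjusted p below 0.05 over all probe sets. ANAPC7 has 1 filled symbol on each side of 0, and UBE2V2 has an open diamond above 2 filled circles.

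Over single probe sets, 119 belonged to members, of which 16 were called lower and 13 higher, where 8.61% of all 54613 probe sets were called lower and 9.92% higher. ANAPC1, the largest subunit of the APC/C, was measured by probe sets that were also assigned to pseudogenes and is no member. Its probe set shared with ANAPC1P4 had a change of -0.96 (adjusted p = 0.00456 over probe sets), and a second one shared with ANAPC1P4 had a change of -0.08. Another, shared with ANAPC1P4 and ANAPC1P2, had a change of -0.37 (adjusted p = 0.0836). On the adjustment over probe sets, the brightest probe sets of CDC27, UBE2G1 and UBE2K did not pass.

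Genes that act with the members were examined from lists of general knowledge. Of the list genes measured 0 lay below the array median in both groups, against 6987 of all genes. The shares over all genes given beside the lists are therefore not matched for signal. Of 20 genes whose proteins are destroyed through the APC/C, 16 fell and 0 rose, where 12.3% of all genes fell and 15.2% rose. The arrays measured their transcripts, not the proteins. The siPCARNEQ arrays lay below the siEGFP arrays without overlap in all 20, where 21.7% of all genes did. No member of this list was higher at an unadjusted p below 0.05 with limma, since all 20 changes were negative. The list median was -0.92, with -1.12 in array 1 and -0.78 in arrays 2 and 3. Geminin (GMNN), an inhibitor of replication licensing, fell by 1.66 (SE 0.11, adjusted p = 0.000115). CDC6, a licensing factor, fell by 1.05 (SE 0.16), CENPF, a kinetochore protein, by 0.94 (SE 0.13), and the mitotic kinase AURKA by 0.83 (SE 0.11). AURKA had a change of -0.25 (adjusted p = 0.0999) without _s_at, _x_at and _a_at probe sets. Averaging arrays 2 and 3 left 5 of the 20 called lower (20 with the array set as a block), and without siEGFP array 2 or array 3, 9 fell.

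The spindle checkpoint restrains CDC20 until chromosomes are attached. Of 7 listed genes that act in it or end it, 5 fell and 1 rose, where 12.3% of all genes fell and 15.2% rose. BUB1B, which binds CDC20 in the inhibitory complex, fell by 1.25 (SE 0.13, adjusted p = 0.000618). MAD2L1, of the same complex, was called lower at -1.28 (SE 0.27, adjusted p = 0.0113). The kinase TTK fell by 0.91 (SE 0.15) and TRIP13, which takes the checkpoint complex apart, by 0.55 (SE 0.10). MAD1L1, the partner of MAD2L1, rose by 0.44 (SE 0.12, adjusted p = 0.0297), and did not pass without siEGFP array 2 (adjusted p = 0.0963) or array 3 (adjusted p = 0.109). On averaging arrays 2 and 3, 2 of the 7 fell and 0 rose, with MAD2L1 and TRIP13 at adjusted p = 0.0585 and 0.0677. With the array set as a block in that fit, 4 fell and 1 rose.

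Of 9 measured genes of the SCF ligases, which act mainly in interphase, 1 was called lower (11.1%, where 12.3% of all genes were) and 3 higher (33.3%, where 15.2% of all genes were). FBXW11 and BTRC, paralogous substrate receptors, rose by 1.06 (SE 0.09, adjusted p = 0.000273) and 0.42 (SE 0.12, adjusted p = 0.0355), and the receptor FBXO11 rose by 0.45 (SE 0.09, adjusted p = 0.00814). BTRC had a change of 0.02 as the mean of its probe sets and -0.05 without _s_at, _x_at and _a_at probe sets. It did not pass without siEGFP array 1, 2 or 3 (adjusted p = 0.0787, 0.0909 and 0.122) or without siPCARNEQ array 3 (adjusted p = 0.0522). FBXO11 did not pass as the mean of its probe sets (0.27, adjusted p = 0.146). The scaffold CUL1 fell by 0.41 (SE 0.08, adjusted p = 0.00744), but had a change of -0.08 without those probe sets. CKS1B, a cofactor of SCF with SKP2, had a change of -0.82 (SE 0.32, adjusted p = 0.101), which passed with the replicate number as a block (adjusted p = 0.01). SKP2, itself a substrate receptor of SCF, was counted with the APC/C substrates and not here. It was called lower, by 0.67 (SE 0.12, adjusted p = 0.00471).

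Of 6 measured ubiquitin and E1 genes 0 were called with limma, and 1 (NAE1) had an unadjusted p below 0.05. The ubiquitin gene UBB had a log2 intensity of 14.94 ± 0.03 in siPCARNEQ arrays, against 14.91 ± 0.02 in siEGFP arrays (SD, n = 3 each). The E1 enzymes UBA1 and UBA6 had changes of 0.12 and -0.14. SAE1, an E1 subunit for SUMO, and UBA3 and NAE1, the E1 subunits for NEDD8, had changes of -0.32, -0.12 and -0.18. NAE1, at an adjusted p of 0.0678, passed under several other settings, among them without siPCARNEQ array 1 (adjusted p = 0.047).

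**Figure D5:**
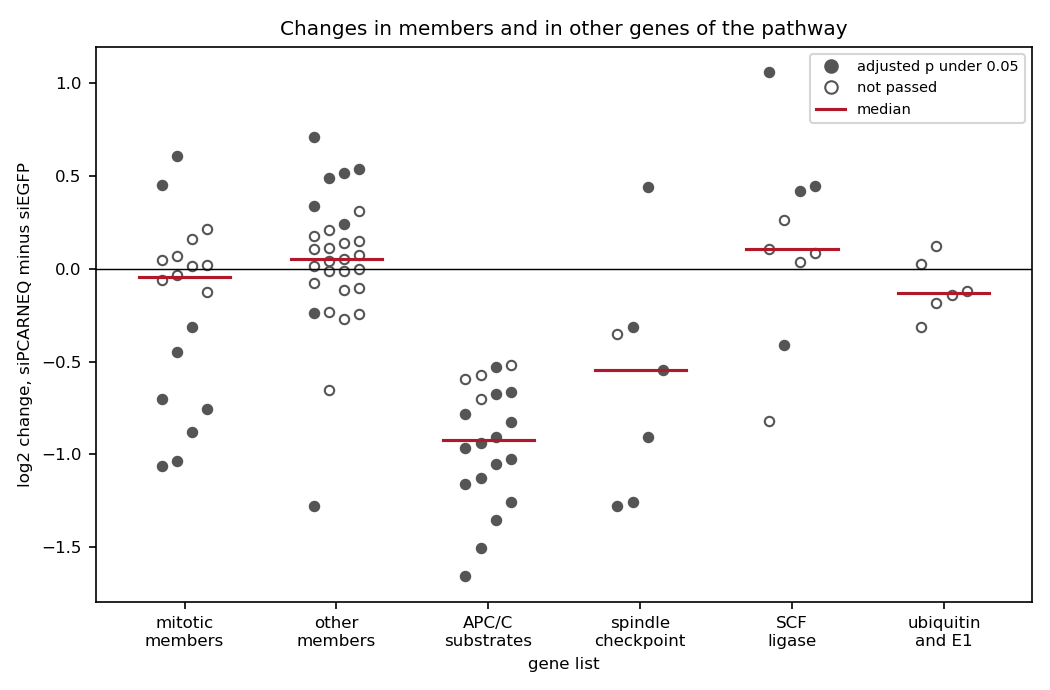
Log2 change, siPCARNEQ minus siEGFP, of the mitotic and other members and of 4 lists of genes that act with them (x axis), 1 point a gene, filled where the adjusted p was below 0.05, with a red line at the list median. All 20 points of the APC/C substrates lie below 0, at a median of -0.92, and the medians of mitotic and other members lie at -0.05 and 0.05.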

How the data were processed

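Total RNA of 6 LNCaP samples was hybridised to Affymetrix arrays after biotin labelling, per the labels' protocols. The deposited table holds linear intensity per probe set, which the authors summarised with RMA, per the submitters' processing notes. Not given in the sources used here are its version, the probe file and the build. Once sorted, log2 of the deposited intensity differed between arrays by no more than 0.0049, so differences in total signal are lost. The number of arrays limits the precision.

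Log2 was taken without a pseudocount. After 62 control probe sets were left out, 54613 remained, of which 41091 were annotated with 1 gene, 1801 with several and 11721 with none. The brightest single-gene probe set over all arrays represented each of 19775 genes. Symbols were compared with RefSeq through gene identifiers, and 0 changed. Groups were compared with limma 3.58.1 in R 4.3.3 (lmFit and eBayes, 2-sided, no covariates, Benjamini-Hochberg over genes, threshold 0.05). The fit was tested on simulated data with independent noise in each gene and array. That simulation held no shift of array 1, so it cannot show how the fit behaves with the array differences seen here. A second fit over all probe sets was used where stated. Promoter letters were searched in Python 3.11.15, and figures were drawn with matplotlib 3.10.9.

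The labels give both groups the replicate numbers 1 to 3. Deviations from group means correlated across genes at 0.53, 0.36 and 0.38 for arrays of the same number, which is taken here as pairing, although no label states a shared day. Unlike numbers 2 and 3 also correlated (0.41 and 0.31), so it was chiefly array 1 that paired. The comparison left the pairing out. Alternatives (a block, arrays left out or averaged, other probe set rules) are given in the closing section.

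Members of the mitotic roles were named with every array, others with every array where called at 0.5 or more, and the rest by their change. Of each list up to 4 genes with the smallest p and those moving against the majority were named. Members and lists were chosen from general knowledge with earlier results of these data known, so their direction is no independent evidence. List genes without a single-gene probe set were not analysed here, among them UBE2D1, UBE2D2, UBE2D3, UBE2L3, UBE2W, UBE2V1 and UBE2M.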

Additional observations from a re-analysis of the deposited data

How the results depend on the processing

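The settings tried were the replicate number as a block, leaving out each array, arrays 2 and 3 averaged (with and without the array set as a block) or alone, the mean of all probe sets of a gene, no _s_at, _x_at or _a_at probe sets, no genes below the array median, eBayes with trend and robust, and arrays centred on their median. The pairing by replicate number, as a block, kept the 17 member calls and added UBE2T and UBE2R2, with 6834 genes called in all against 5445 without it, 7 mitotic members lower and 2 higher. It also brought CKS1B past the threshold and changed no other call of a gene named. With arrays 2 and 3 averaged and the array set as a block, 5165 genes were called, 13 of the 17 member calls were kept, CDC27, UBE2G1, UBE2K and UBE2Q1 were lost, and UBE2T was gained, but not UBE2R2. Under the trend and robust setting the same 17 members were called.

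Leaving out 1 array gave 3701 to 6303 genes called, 6 to 8 members lower and 6 to 11 higher. It gave 5 to 7 mitotic members lower and 2 to 3 higher, 1 to 2 other members lower and 4 to 8 higher, and 14 to 23 genes of the 4 lists lower and 2 to 4 higher, against 22 and 4 with all arrays. Its medians were -0.075 to -0.039 for mitotic and 0.032 to 0.085 for other members. The counts of 14 and 2 came without siEGFP array 2 and likewise without siEGFP array 3, and other members lower fell to 1 without any array but siPCARNEQ array 1.

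On averaging arrays 2 and 3 without that block, 2236 genes were called. Of the members 4 were lower and 4 higher, with 3 and 1 mitotic and 1 and 3 other members, and of the lists 7 were lower and 2 higher. Fewer samples entered that fit, and likewise the one with the array set as a block. The median of other members was 0.084 there, with or without the array set as a block. In arrays 2 and 3 alone, 8229 genes were called, 14 members were higher, and of other members 5 were lower and 11 higher. As the mean of all probe sets, 4 other members were lower and 2 list genes higher. Without _s_at, _x_at and _a_at probe sets, 39 members remained, with 5 lower, 3 mitotic members lower and 4 higher, 14 list genes lower and 2 higher, and a mitotic median of 0.12. Centring each array gave a median of 0.0073 for other members. For these settings the cause was not tested.

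Directions turned mainly for members near 0. Averaged arrays 2 and 3, with or without the array set as a block, put ANAPC10 at -0.0081 and UBE2G2 at 0.048. In arrays 2 and 3 alone UBE2E1 was at 0.00075, UBE2J2 at -0.019 and UBE2Z at 0.066, and as the mean of probe sets FZR1 was at -0.014 and UBE2U at -0.059. Without _s_at, _x_at and _a_at probe sets ANAPC7 was at 0.28 (adjusted p = 0.0184, called in the opposite direction), UBE2B at -0.14, ANAPC5 at 0.18, CDC16 at 0.075, UBE2Z at 0.052 and BTRC at -0.053, from other probe sets of the gene. With arrays centred, ANAPC10 was at -0.022, ANAPC4 at -0.026, UBE2NL at -0.00046, UBE2U at -0.026 and UBB at -0.015. Leaving out 1 array gave -0.039 to 0.12 for FZR1, -0.091 to 0.19 for ANAPC10, -0.0062 to 0.25 for ANAPC2, -0.016 to 0.076 for ANAPC4, -0.065 to 0.0039 for CDC16, -0.028 to 0.0065 for UBE2E1, -0.17 to 0.070 for UBE2G2 and -0.0015 to 0.11 for UBE2J2. It gave -0.031 to 0.033 for UBE2Z, -0.062 to 0.13 for UBE2NL, -0.36 to 0.042 for UBE2O, -0.018 to 0.22 for UBE2QL1, -0.034 to 0.085 for UBE2U, -0.50 to 0.045 for SAE1 and -0.0083 to 0.24 for UBA1. None of these genes but ANAPC7, UBE2B and BTRC was called in the comparison as reported. For 6 members below the array median in both groups, signal over background limits what can be said.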
